A study of Mus musculus with 2 samples.

Results

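The genes described here are the 18 Wnt ligand genes and 12 receptor genes listed by name for mouse, taken from an mm10 annotation (GENCODE vM21), and they are 30 of its 21938 protein-coding genes. The receptors are the 10 Frizzled genes and the co-receptors Lrp5 and Lrp6. All 30 were found in the annotation by symbol, and the rule that lists them uses no measured value of these libraries. DNase-seq, in which the enzyme DNase I cuts accessible chromatin and the cut sites are sequenced, was done on hindbrain of strain B6NCrl mice, labelled healthy, on postnatal day 0, with tissue of both sexes pooled. There is 1 group with 2 biological replicates, so no comparison between conditions was possible. The labels record both replicates under the same donor entry and do not give the number of animals in each. Whole hindbrain holds many cell types, so a weak peak can come from few cells or from little access in many cells, and these cannot be told apart.

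Wnt proteins are secreted, lipid-modified signals. They bind Frizzled receptors, and in the canonical branch Lrp5 or Lrp6 joins the complex, beta-catenin is spared from destruction, and TCF/LEF factors with beta-catenin act on target genes. Other branches act on cell polarity and movement without beta-catenin. In the brain the pathway is known for patterning the neural tube, for guiding axons and synapses, and for growth of the brain's blood vessels.

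An open promoter means a peak of each replicate within 500 bp of any annotated start site of the gene, and these peaks need not overlap each other. A distal region is a stretch with a peak of both replicates that lies over 500 bp from every annotated start of any gene, given to the gene with the nearest protein-coding start. The value of a peak is the authors' deposited score, a whole number whose scaling is not stated, and replicate 1 is given before replicate 2 throughout. Because each library has its own scale, a score was also ranked as a percentile among the peaks of its own library, and "mean percentile" is the mean over both replicates. No test was run over the genes, which are not replicates of a condition, and 2 replicates allow no useful error estimate, so both values are given.

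The regions that carry the results are shown first, on the strand of the gene, 5′ to 3′, as read from the GRCm38 (mm10) RefSeq genome. Capitals mark the short words searched for on both strands: CTTTGAT of TCF/LEF factors, the E boxes CAGCTG and CAGATG of bHLH factors, GGGCGG of SP and KLF factors, CCAAT of NF-Y and TTGGC of NFI factors. A match is a description of the letters and not a bound site. The ligand regions are the highest-ranked distal region, 52.2 kb upstream of Wnt7b at chr15:85634576-85634765 (minus strand), the highest-ranked one with the TCF/LEF word, in an intron of Wnt10a at chr1:74797556-74797705 (plus strand), and the region of the strongest ligand promoter, Wnt7a at chr6:91411796-91411965 (minus strand).
Wnt7b distal: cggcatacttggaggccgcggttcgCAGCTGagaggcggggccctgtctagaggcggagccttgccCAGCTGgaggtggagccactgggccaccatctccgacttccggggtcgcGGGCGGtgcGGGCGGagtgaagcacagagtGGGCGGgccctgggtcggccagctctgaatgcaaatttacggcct
Wnt10a intron: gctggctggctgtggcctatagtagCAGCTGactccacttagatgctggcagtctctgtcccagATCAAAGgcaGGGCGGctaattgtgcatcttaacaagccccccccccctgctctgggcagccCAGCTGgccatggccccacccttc
Wnt7a promoter: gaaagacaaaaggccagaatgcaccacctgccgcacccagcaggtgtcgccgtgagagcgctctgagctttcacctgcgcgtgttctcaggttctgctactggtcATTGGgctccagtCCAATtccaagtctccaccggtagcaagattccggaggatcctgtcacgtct

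The receptor regions were chosen the same way. They are the highest-ranked distal region, in the coding exon of Fzd7 at chr1:59483876-59484045 (plus strand), the highest-ranked one with the TCF/LEF word, 273.1 kb downstream of Fzd1 at chr5:4484836-4485005 (minus strand), and the upstream part of the strongest receptor promoter, Fzd1 at chr5:4758036-4758165 (minus strand).
Fzd7 coding exon: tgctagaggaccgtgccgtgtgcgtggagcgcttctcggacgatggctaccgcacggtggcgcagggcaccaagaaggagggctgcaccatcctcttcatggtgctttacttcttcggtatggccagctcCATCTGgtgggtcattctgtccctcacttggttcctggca
Fzd1 distal: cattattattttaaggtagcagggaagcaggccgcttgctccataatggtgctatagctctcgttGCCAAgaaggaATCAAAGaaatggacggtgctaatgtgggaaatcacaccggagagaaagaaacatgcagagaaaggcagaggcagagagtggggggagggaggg
Fzd1 promoter: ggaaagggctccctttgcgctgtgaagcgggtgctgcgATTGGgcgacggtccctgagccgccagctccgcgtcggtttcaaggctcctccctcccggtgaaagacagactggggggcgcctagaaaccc

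The Wnt7b region holds 3 copies of GGGCGG and 2 of CAGCTG and has 68.4% G and C, and the Wnt10a intron has the TCF/LEF word on the reverse strand between 2 E boxes. Both promoter sequences hold CCAAT words, 2 at Wnt7a and 1 at Fzd1, and no TCF/LEF word.

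Receptor promoters were open throughout, while ligand promoters were open in part and with lower scores. All 12 receptor genes and 13 of 18 ligand genes (72.2%) carried promoter peaks of both replicates, beside 66.3% of all protein-coding genes. Genes differ in CpG count at the 5′ end, so they were also divided into deciles of that count. In the deciles that hold the receptors 93.1% to 97.6% of genes were open in both replicates, so 12 of 12 is near that share. In those that hold the ligands it was 49.5% to 97.6%. It was 49.5% for Wnt8a and Wnt8b, 78.7% for Wnt7b, Wnt10a and Wnt16, and at least 95.3% for every other ligand. Beside genes of like CpG count the 72.2% of ligands is thus not high, although it lies above the 66.3% of all genes. In replicate 1 alone 16 ligands had a peak and in replicate 2 alone 13, where the shares of all genes were 70.8% and 66.8%. The place of ligands beside all genes depended on the setting: with only peaks at or above the median score of their library it was 50% of ligands and 62.2% of all genes, and with the 5′ end of each gene alone 55.6% and 60.7%. Among the genes open in both, the best promoter peak of ligands had a median score of 85 and 50 in replicates 1 and 2, that of receptors 129.5 and 111, and that of all open genes 129 and 109. No ligand promoter reached a score of 120 in replicate 1, which 9 of 12 receptors did. The 2 ranges overlapped, at 44 to 119 against 68 to 146 in replicate 1 and 28 to 85 against 33 to 135 in replicate 2.

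**Figure D1:**
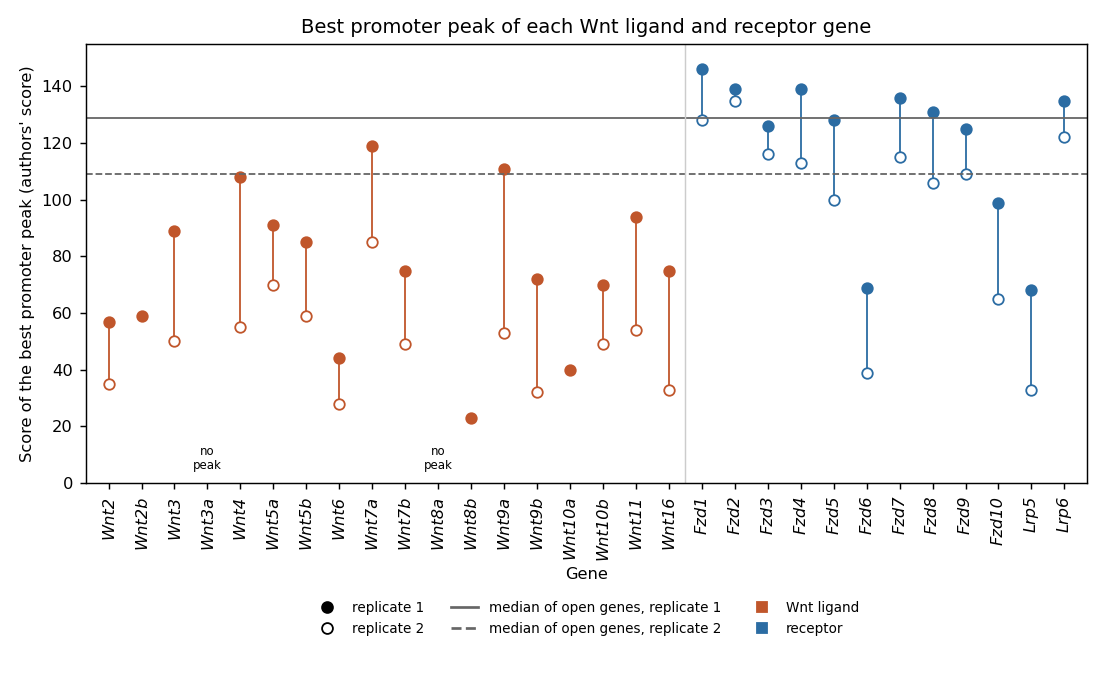
Score of the best promoter peak (y axis, the authors' score) of each gene (x axis) in replicate 1 (filled) and replicate 2 (open circles), for ligands in orange and receptors in blue. The solid and dashed lines are the medians of all open protein-coding genes, 129 and 109. Every ligand lies below the line of each replicate, and Fzd6, Fzd10 and Lrp5 are the lowest receptors.

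Wnt7a had the strongest ligand promoter, with scores of 119 and 85. Wnt7a is known in the cerebellum as a signal from granule cells to the mossy fibres that contact them, and with Wnt7b as the neural signal that directs brain vessel growth. The Wnt7b promoter was weaker, at 75 and 49. Wnt5a, the classical ligand of the branches without beta-catenin, scored 91 and 70, and its close relative Wnt5b 85 and 59. In replicate 2 Wnt7a, Wnt5a and Wnt5b had the 3 highest ligand scores.

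Wnt4, known for kidney and ovary development, scored 108 and 55, and Wnt9a, known in joints, 111 and 53. Wnt11, a ligand of cell movement in gastrulation, scored 94 and 54, and Wnt3, a canonical ligand, 89 and 50. For these 4 genes replicate 1 lay far above replicate 2, with percentiles of 94.1 and 69.4 for Wnt9a. This was not particular to them, as replicate 1 had the higher score in all 13 open ligands and all 12 receptors. The percentiles lay further apart at Wnt9b (77.5 and 36.5), Wnt16 (79.4 and 38.8) and Lrp5 (74.9 and 38.8). The order of these 4 genes differed between the replicates.

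The lower ligand promoters were those of Wnt10b (70 and 49), Wnt2 (57 and 35), Wnt16 (75 and 33), Wnt9b (72 and 32) and Wnt6 (44 and 28). Wnt10b holds back fat cell formation, Wnt2 acts in lung and vessels, Wnt16 in bone, Wnt9b in kidney, and Wnt6 in epithelia. Wnt6 was the lowest, at percentiles of 49.0 and 26.1 of all peaks of its library. Its hotspot, the wider stretch of significant signal called by the authors, was only 124 and 198 bp wide. The Wnt6 peaks of the 2 replicates do not overlap, so it is open in both without a shared peak. It is the only 1 of the 25 open genes of which this is so, although the highest-scoring peaks of Wnt5a, Wnt9b and Lrp6 also lie apart.

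Of the other 5 ligands, 3 had a promoter peak in replicate 1 only, with scores of 59 for Wnt2b, 40 for Wnt10a and 23 for Wnt8b. The Wnt8b peak lay at the start of a non-coding transcript 16849 bp below the gene's 5′ end. Wnt3a, a canonical ligand of the dorsal midline of the neural tube, and Wnt8a, a ligand of gastrulation, had no promoter peak in either replicate. Replicate 1 has more peaks in all, 271150 against 172002.

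Among receptors, Fzd1, Fzd2 and Lrp6 were highest, with scores of 146 and 128, 139 and 135, and 135 and 122. Fzd1 and Fzd2 are related receptors known for palate and heart closure, and Lrp6 is the main co-receptor of the canonical branch. Fzd3, which guides axon tracts, scored 126 and 116, Fzd7 136 and 115, and Fzd4 139 and 113. Fzd4 is the receptor of norrin in retinal vessels. Its promoter window is shared with that of the protein-coding gene Tmem135, so the peak cannot be given to Fzd4 alone. Fzd9 scored 125 and 109, Fzd8 131 and 106, and Fzd5, a receptor of the eye field and gut, 128 and 100. These 9 genes all lay at or above the percentile of 93.7 in both replicates, and their order differed between the replicates.

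The other 3 receptors stood apart from these 9 and reached down into the ligands' range. Fzd10 scored 99 and 65, Fzd6, which orients hair and other polarised structures, 69 and 39, and Lrp5, known for bone mass and retinal vessels, 68 and 33. The 2 co-receptors thus differed, with mean percentiles of 97.8 for Lrp6 and 56.9 for Lrp5. The windows of Fzd6, Fzd10, Wnt5a, Wnt7a and Wnt7b also hold a start of another annotated gene that is not protein-coding, and DNase-seq does not say which start a peak belongs to.

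Promoters rich in CpG, the dinucleotide that marks the island promoters of many genes, are open more often, so the genes were set beside others of like CpG count. Within 500 bp of the 5′ end the median number of CpG was 69.5 for ligands, 97 for receptors and 41 for all genes. Each of the 13 open ligand promoters scored below the median of open genes in its own CpG decile in both replicates. The decile is that of the 5′ end, while Wnt5b, Wnt7b, Wnt10b, Wnt11 and Wnt16 had their best peak at a start further in. For these genes the scored start was thus not matched for CpG count, and no receptor was of this kind. Of the 12 receptors 7 scored below their decile's median in both replicates, with Fzd1, Fzd2, Fzd4, Fzd8 and Lrp6 the exceptions. By mean percentile, the median ligand exceeded 12.6% of all open genes (range 2.04 to 30.5) and the median receptor 50.5% (range 5.48 to 89.2).

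Wnt3a has 90 CpG, and 97.4% of genes in its CpG decile were open in both replicates. Wnt2b has 96, and 97.6% of its decile were open. Wnt8a has 19 and Wnt8b 21, in a decile where 49.5% were open, and Wnt10a has 37, where 78.7% were. Promoters without a peak in both replicates are thus rare among genes with the CpG count of Wnt2b or Wnt3a and frequent among genes with that of Wnt8a or Wnt8b.

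Widths of the hotspots at the promoters stood in the same order as the median peak scores. The hotspot over the promoter had a median width of 461 and 311 bp at ligands, 1433 and 1057.5 bp at receptors, and 1117 and 1055 bp at all open genes. In replicate 2 the −log10 q of the hotspot, deposited with an upper limit of 100, was at that limit for 4 of 13 ligands, Wnt4, Wnt5a, Wnt7a and Wnt11, and for 9 of 12 receptors. Of all open genes 88.7% were at the limit. In replicate 1, 11 of 13 ligands, 11 of 12 receptors and 96.0% of all open genes were. With only 12 receptors, these counts do not place receptors below all open genes.

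For several ligands the open start was not the 5′ end of the gene. With the 5′ end alone, 10 ligands and all 12 receptors had a peak in both replicates. The 3 ligands lost were Wnt7b, Wnt10b and Wnt11. At Wnt7b the 5′ end scored 69 in replicate 1 with no peak in replicate 2, while a start 4403 bp further in scored 75 and 49. Wnt10b had its shared peaks at a start 1121 bp further in (70 and 49), and Wnt11 at one 3733 bp further in (94 and 54). At both genes the 5′ end had a peak in replicate 1 only, with scores of 52 and 70.

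Wnt5b had peaks of both replicates at each end of its series of starts. The 5′ end scored 71 and 38, and a start 94961 bp downstream scored 85 and 59. All 6 starts of Wnt5a were open in both replicates, in windows that partly overlap, with scores from 76 to 91 and from 46 to 70. The Wnt5a hotspot in replicate 1, at 2796 bp, was the widest of any ligand.

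Every ligand and receptor gene had at least 1 distal region, which 68.7% of all protein-coding genes did. The 18 ligands had 150 in all, with a median of 6.5 and a range of 1 to 24, and the 12 receptors 92, with a median of 7.5 and a range of 1 to 21. The median over all genes was 2 and the mean 4.90. With only regions inside the gene or up to 50000 bp away the medians were 6 for ligands and 5.5 for receptors, so the order of the 2 medians is not stable. Replicate 1 had 277 distal peaks at ligands and 228 at receptors, and replicate 2 175 and 121.

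A gene with more genome around it can hold more regions, so counts were set against its territory, the stretch of genome nearest to its starts. The median territory was 73.4 kb for ligands, 88.6 kb for receptors and 45.0 kb for all genes. Per 100 kb of territory, ligands together had 10 distal regions, receptors 4.81 and all genes 3.94. The pooled value of receptors leans on Fzd8 and Fzd1, which hold 686 and 348 kb of their 1912 kb. The median of the single genes was 9.59 for ligands, 5.60 for receptors and 3.50 for all genes. In 16 of 18 ligands the count was above the median of genes in the same decile of territory length, with Wnt9b and Wnt16 the exceptions. In receptors it was above in 7 of 12, and Fzd3, Fzd5, Fzd6, Fzd8 and Lrp6 were not.

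**Figure D2:**
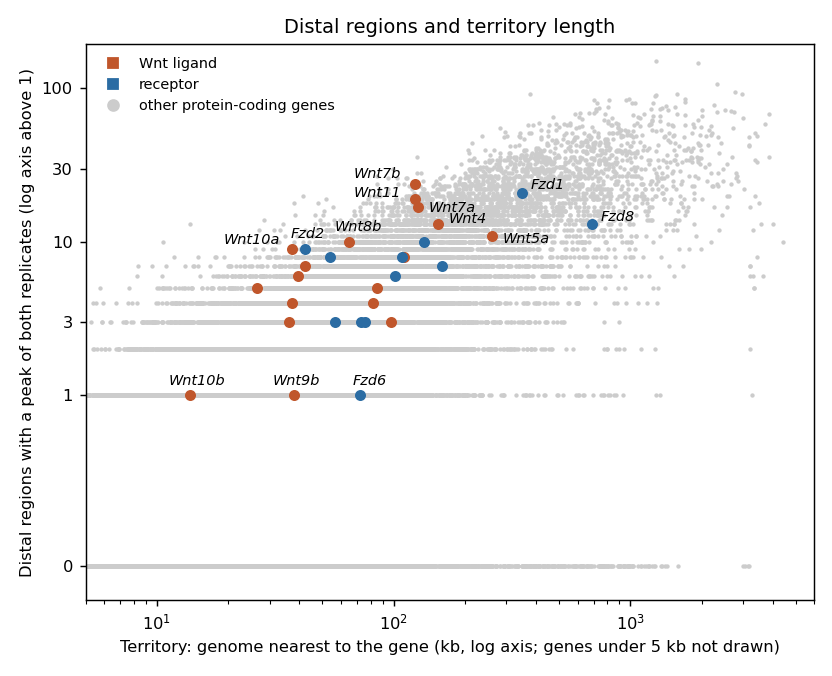
Number of distal regions (y axis, log above 1) against the length of the gene's territory in kb (x axis, log) for ligands (orange), receptors (blue) and other protein-coding genes (grey). Wnt7b, Wnt11 and Wnt7a lie at the upper edge for territories of 123 to 127 kb, while Fzd8 has 13 regions in 686 kb.

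Wnt7b had the most, with 43 distal peaks in replicate 1, 27 in replicate 2 and 24 shared regions in 124 kb. Of these 16 lay upstream of the nearest Wnt7b start and 6 had a mean percentile of at least 90. Wnt11 had 38 and 21 peaks and 19 regions in 123 kb, and Wnt7a 26 and 20 peaks and 17 regions in 127 kb. Wnt4 had 29 and 14 peaks and 13 regions in 154 kb. In the decile of genes with territories like those of Wnt7a, Wnt7b and Wnt11, the median was 5.

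Fzd1 had the most regions of any receptor, with 43 and 28 peaks and 21 regions in 348 kb, of which 11 lay over 100 kb away. Fzd8 had 40 and 18 peaks and 13 regions in 686 kb, of which 6 lay over 100 kb away and the farthest 566.7 kb. In the decile of genes with territories as long as theirs the median was 18, so the count of Fzd1 was a little above and that of Fzd8 below it.

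The densest genes were the ligand Wnt10a, with 9 regions in 37.2 kb, and the receptor Fzd2, with 9 in 42.1 kb. Both counts were at or above those of 99.5% of genes in their decile. At the other end Wnt9b, Wnt10b and Fzd6 had 1 region each.

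**Figure D3:**
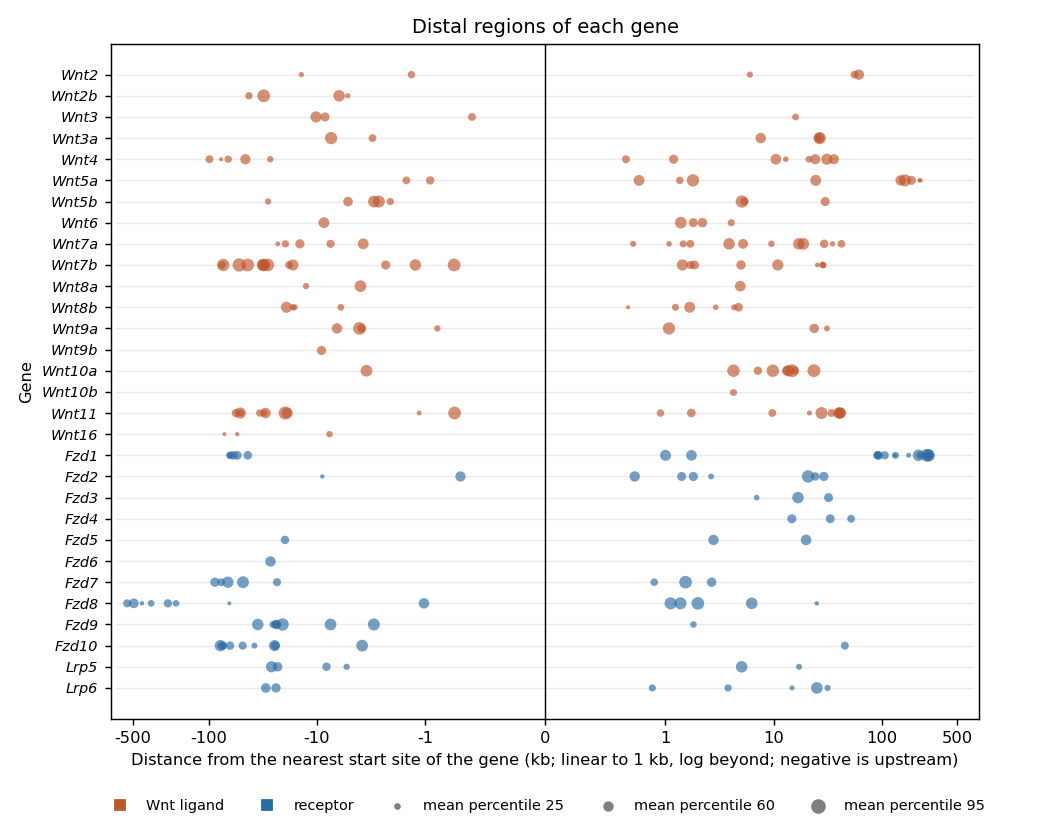
Position of each distal region as distance in kb from the nearest start of the gene (x axis, linear to 1 kb and log beyond, upstream negative) for each gene (y axis), with larger points for higher mean percentile. Ligand regions (orange) have a median distance of 13.5 kb, and the regions of Fzd1 and Fzd8 (blue) reach 273.6 and 566.7 kb.

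Ligand regions lay closer to their gene. The median distance was 13.5 kb for ligands, 25.9 kb for receptors and 26.1 kb for all distal regions, and 46%, 29.3% and 31.2% lay within 10 kb. Over 100 kb away were 5 ligand regions, all of Wnt5a, and 17 receptor regions, all of Fzd1 and Fzd8. These 2 genes held 21 and 13 of the 92 receptor regions, at median distances of 106.7 and 64.4 kb. Distance is bounded by the territory, with medians of 73.4 kb for ligands and 88.6 kb for receptors. Ligands also had more annotated starts, with a median of 2 against 1. The part these play was not tested. Frizzled genes are short, with a median length of 5.25 kb. In the gene's own coding exon lay 12 of 92 receptor regions, 3 each in Fzd2 and Fzd8, 2 each in Fzd1 and Fzd7, and 1 each in Fzd5 and Fzd9. For ligands the number was 8 of 150. The like share over all distal regions was not computed, so whether these counts are unusual is not known. In an exon of any annotated gene lay 19 of 150 ligand regions, 19 of 92 receptor regions and 8273 of all 107430 distal regions.

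A higher share of ligand than of receptor regions was among the strongest, with many of them at Wnt7b and Wnt10a. A mean percentile of at least 90 was reached by 19 of 150 ligand regions (12.7%) and 6 of 92 receptor regions (6.52%), beside 6.64% of all distal regions. Of the 19, Wnt7b held 6 and Wnt10a 4, while Wnt2, Wnt3, Wnt4, Wnt6, Wnt7a, Wnt8a, Wnt8b, Wnt9b, Wnt10b and Wnt16 held none. The higher share is thus not a trait of ligands in general. Of the 6 receptor regions Fzd1 held 2, and Fzd2, Fzd7, Fzd8 and Fzd9 held 1 each. The Wnt7b region printed above scored 143 and 135, above any promoter of a ligand, with a mean percentile of 99.6. Its nearest annotated start of any kind, of the gene Gm49539, was 11.4 kb away. The next was 19.7 kb upstream of Wnt11 at chr7:98815356-98815545, with scores of 121 and 119. The third was 23.6 kb downstream of the nearest Wnt10a start at chr1:74816916-74817085, past the end of the gene, with scores of 126 and 108.

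For receptors the Fzd7 coding-exon region scored 127 and 91. The second was likewise in the gene's own coding exon, in Fzd8 at chr18:9214056-9214265, with scores of 112 and 102. The third lay 261.7 kb downstream of Fzd1 at chr5:4496256-4496405 and scored 117 and 94.

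In most open ligand genes a distal region outranked the promoter, in a comparison added after the data were seen. The best distal region had a higher mean percentile than the promoter in 9 of 13 open ligands and 3 of 12 receptors, beside 22.7% of the open genes with any distal region. The ligands were Wnt2, Wnt3, Wnt5a, Wnt5b, Wnt6, Wnt7b, Wnt9a, Wnt9b and Wnt11, and the receptors Fzd6, Fzd10 and Lrp5, which also had the lowest receptor promoters. A gene with more distal regions has more chances to hold a high one. At Wnt7b the values were 99.6 for the region and 72.3 for the promoter, at Wnt6 86.3 and 37.5, and at Fzd1 93.9 and 99.2. For Wnt4 they were 82.0 and 82.4, which are nearly equal.

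**Figure D4:**
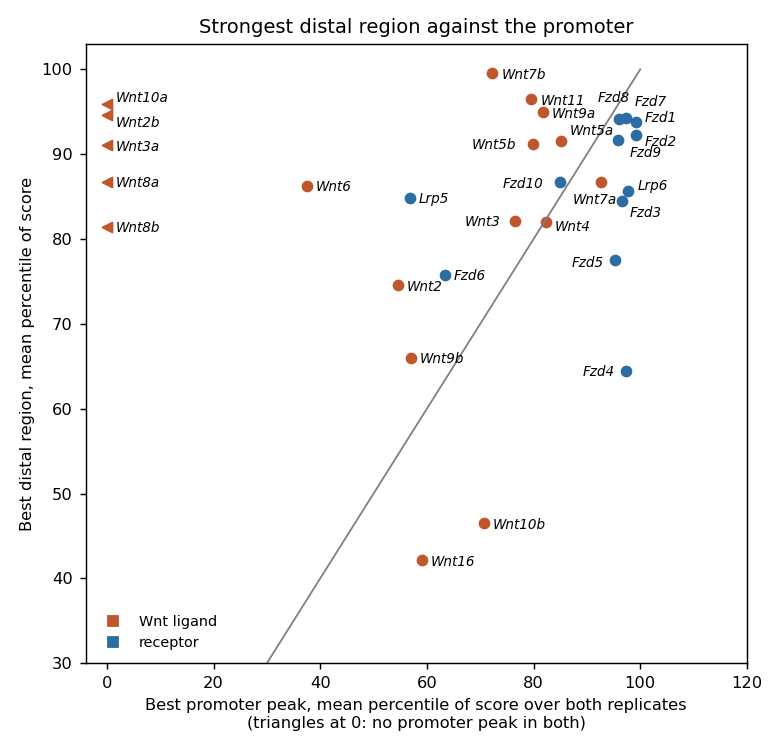
Mean percentile of the best distal region (y axis) against that of the best promoter peak (x axis), in ligands (orange) and receptors (blue), with the line of equal values; triangles at 0 have no promoter peak in both replicates. Of the 13 open ligands 9 lie above the line, and 9 of 12 receptors lie below it.

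The 5 ligands that lacked a promoter peak in both replicates still had distal regions, and in 3 of them the best reached a mean percentile of 90. Their best mean percentile was 95.9 for Wnt10a, 94.7 for Wnt2b, 91.1 for Wnt3a, 86.8 for Wnt8a and 81.4 for Wnt8b. The Wnt3a region lay 7.4 kb upstream and scored 107 and 83, and the Wnt2b region lay 31.0 kb upstream and scored 123 and 97. Assignment is by distance only, so a region may act on another gene.

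Some ligand genes are neighbours. Wnt3a and Wnt9a point away from each other on chromosome 11 with 16.2 kb between their 5′ ends and 6 distal regions in between. Wnt3 and Wnt9b are arranged the same way 24.3 kb apart with 4 regions between. Wnt6 and Wnt10a lie on the same strand of chromosome 1, 19.6 kb from start to start, with 5 regions between. That stretch holds the whole Wnt6 gene, and only the region at chr1:74787956-74788125 lies outside it. Which gene of a pair these regions belong to was not tested.

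Words for TCF/LEF factors were about as frequent as in all distal regions. CTTTGAT was in the central 200 bp of 4 of 150 ligand regions (2.67%) and 4 of 92 receptor regions (4.35%), beside 2.91% of all distal regions. The ligand regions were 1 each of Wnt5a, Wnt6, Wnt8b and Wnt10a, and the receptor regions 3 of Fzd1 and 1 of Fzd7. By rank, the first was the Wnt10a intron with scores of 116 and 85. The second was at chr14:28675596-28675765, 164.2 kb downstream of Wnt5a, with 100 and 78. The first for receptors was the Fzd1 region printed above, with 58 and 52, and the second, 91.3 kb downstream of Fzd1 at chr5:4666616-4666765, had 49 and 45.

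The SP and KLF word GGGCGG was in 17.3% of ligand regions, 7.61% of receptor regions and 6.76% of all. The central bases of ligand regions also held more G and C, with medians of 55.5%, 51.5% and 49.5%, and the part this plays was not tested. Values of the other words are given in the same order, for ligand regions, receptor regions and all. TTGGC was in 47.3%, 57.6% and 46.4%, CAGATG in 18%, 28.3% and 24.0%, CAGCTG in 22%, 21.7% and 20.6%, and CCAAT in 19.3%, 27.2% and 25.8%. CCATTGT of Sox factors was in 2.67%, 3.26% and 2.86%, and GACCACCCA of Zic and Gli factors in none of the ligand or receptor regions and in 0.199% of all.

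In the RefSeq promoter table, of the same build, 20 of the 30 genes were found, 14 ligands and 6 receptors. Its windows run from 250 bases before the start to 50 after. CTTTGAT was in those of Wnt5b and Wnt11 and in 4.29% of all 27025. GGGCGG was in 11 of 14 ligand and 5 of 6 receptor windows, and in 38.2% of all. The word is all G and C and holds a CpG. Within 500 bp of the 5′ end the median number of CpG was 69.5 for all ligands, 97 for all receptors and 41 for all genes. The median G and C there was 63.0%, 67.3% and 54.7%. The windows were not matched for either, and the part these play was not tested.

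Of the other genes of the pathway 61 of 66 (92.4%) were open in both replicates, beside 66.3% of all genes. Over the CpG deciles these 66 genes fall in, the mean share of open genes was 90.4%. The list for Wnt secretion and lipid handling had all 3 genes open, Porcn, which attaches the lipid (122 and 98), Wls, the Wnt carrier (100 and 64), and Notum, a secreted enzyme that removes the lipid (87 and 43) and is also in the list of target genes. Of R-spondins, which raise Frizzled levels, and their receptors 6 of 9 were, led by Znrf3 (139 and 111), which removes Frizzled from the surface, and the receptor Lgr4 (135 and 111), while Rspo4 had no peak. Of inhibitors 13 of 15 were, led by Kremen1 (134 and 111) and Apcdd1 (132 and 111), and Dkk4 and Sost had none. The median scores of open inhibitors, 82 and 52, were close to those of ligands at 85 and 50.

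The cytoplasmic relay had the highest median scores of the 7 lists. All 13 other receptors and polarity genes were open, with medians of 121 and 96, led by Celsr3 (136 and 109) and Celsr2 (135 and 109), adhesion proteins of planar polarity. All 11 of the cytoplasmic relay were, with medians of 142 and 127, led by Btrc (147 and 137), which marks beta-catenin for destruction, and Gsk3b (146 and 137), which phosphorylates it. All 10 nuclear genes were, with medians of 128.5 and 109.5, led by the co-repressors Tle1 (144 and 133) and Tle3 (144 and 128). All 7 common target genes were, with medians of 114 and 99, led by Axin2 (145 and 126) and Nkd1 (135 and 110), both feedback inhibitors. The medians of all open genes were 129 and 109.

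The tissue label was set beside marker genes. Of all protein-coding genes 66.3% were open in both replicates, and 93.1% to 97.6% of those in CpG deciles 6 to 10. The markers were not matched for CpG count, so the counts of open markers do not test the label. All 10 hindbrain genes were open in both replicates, with scores of 81 to 136 and 59 to 121. Of 10 forebrain genes 5 were, 4 had a peak in 1 replicate only and Nkx2-1 had none, with scores of 45 to 118 and 36 to 85 where a peak was called. The upper forebrain scores thus lie within the hindbrain range. Of markers of other cell types, 7 of 8 meningeal and fibroblast genes were open (35 to 125 and 22 to 99 where a peak was called), 4 of 6 of choroid plexus (40 to 81 and 30 to 71), 3 of 8 of endothelium (44 to 88 in replicate 1, 32 to 48 in replicate 2) and 2 of 6 of microglia. Pecam1, Tie1, Emcn, Lum, Ttr, Kcne2, Aif1 and Cx3cr1 had no promoter peak in either replicate. Several Wnt ligands are also made by meninges and choroid plexus, and their part in the ligand peaks was not tested.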

How the data were processed

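DNase-seq peaks and hotspots of 2 postnatal day 0 hindbrain libraries were used. Per the labels and the deposited file list, the authors called both for each library separately from filtered alignments on mm10, without pooling. For caller, version and aligner, names were not given in the sources used here. The deposited peak value is a score (1 to 150, scaling not stated), and the deposited hotspot value is a −log10 q (1.30 to 100). Read depth is unknown, since the tables hold no read counts; the peak lists hold 271150 and 172002 peaks.

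Peaks on the 21 main chromosomes were kept. Peaks of the replicates were merged at 1 bp overlap into 136714 shared regions, of which 107430 were distal. CpG was counted within 500 bp of the 5′ end. Words were searched with Python 3.11.15 and pandas 2.3.3 in the central 200 bp. Interval code was tested on simulated data. No statistical test was run. The members and gene lists were chosen with earlier results of these data known. All members are named; single regions are the 3 highest-ranked distal regions and the 2 highest-ranked with CTTTGAT for ligands and for receptors, and pathway genes are the 2 highest-ranked of each list and those without a peak. Notum was named after its values were seen. Sequences from chromosome 18 were left out. Alternatives were stronger peaks (score at or above the library's median), a 1000 bp window, the 5′ end alone, hotspots, a reciprocal overlap of 50%, only regions inside the gene or up to 50000 bp away, and each replicate alone.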

Additional observations from a re-analysis of the deposited data

How the results depend on the processing

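Receptor genes open in both replicates numbered 12 in every setting run except with stronger peaks, where Lrp5 was lost (11). Ligand genes numbered 9 with stronger peaks (Wnt2, Wnt6, Wnt9b and Wnt16 lost; 50% beside 62.2% of all genes), 10 with the 5′ end alone (55.6% beside 60.7%), 14 with a 1000 bp window (Wnt8b gained), and 13 with hotspots and, as alternatives chosen after seeing the data, with lists of equal length and with protein-coding transcript starts. Where the peaks of the replicates had to overlap, also chosen later, ligands numbered 12 (Wnt6 lost; 66.7% beside 65.9%) and receptors 12. Leaving out a replicate gave 13 to 16 ligands and 12 receptors.

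With stronger peaks the median number of distal regions per gene was 4 for ligands, 4.5 for receptors and 1 for all genes, and regions per 100 kb were 5.469, 2.824 and 2.12. With only regions inside the gene or up to 50000 bp away the medians were 6 for ligands and 5.5 for receptors, which turns their order. Leaving out a replicate gave medians of 8 to 11.5 for ligands and 9 to 15 for receptors, and 11.21 to 17.94 and 5.961 to 11.66 regions per 100 kb; the higher values are replicate 1 alone, whose list is longer. Ligands kept the higher density in each setting where it was computed. With CTTTGAA counted as well, 7.333% of ligand and 7.609% of receptor regions held a TCF/LEF word, beside 7.35% of all distal regions. A distal region outranked the promoter in 8 to 10 ligands and 2 to 3 receptors. This comparison and its settings were chosen after seeing the data. No paired analysis was possible because there is 1 group. Without read counts or more than 2 replicates, a missing peak shows only that none was called.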
